A study of Mus musculus with 10 samples.

Results

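The genes described here encode 9 receptors for blood cell cytokines: Epor, Csf1r, Csf2ra, Csf2rb, Csf3r, Flt3, Il3ra, Il6ra and Il7r. They were chosen by name from the 55487 genes counted in every library, and all 9 were found there by their Ensembl identifiers. The libraries came from HM-1 mouse embryonic stem (ES) cells, a line grown with leukaemia inhibitory factor, and from their progeny in serum culture, with 2 libraries for each of 5 stages. FLK1+ haemangioblast cells (HB) were taken from embryoid bodies after 3 days. After 2.5 further days in blast medium, which held VEGF and IL-6, cells were sorted as haemogenic endothelium 1 (HE1; KIT+, TIE2+, CD41-), haemogenic endothelium 2 (HE2; KIT+, TIE2+, CD41+) and haematopoietic progenitors (HP; KIT+, TIE2-, CD41+). All 5 stages share the 1 ES cell line. None carried a deletion, and no treatment other than the differentiation itself is named in the labels. The RNA was enriched for nuclear RNA, so the levels below are those of nuclear transcripts and not of receptor protein at the cell surface.

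Cytokine receptors let blood progenitors survive, divide and mature in response to soluble factors. Most of those described here belong to the class without a kinase of their own: a ligand-binding chain pairs with itself or with a shared signalling chain, and JAK kinases bound to the chains then activate STAT factors. EPOR serves erythroid cells, CSF3R granulocytes, IL7R lymphoid cells, and the chains for IL-3 and GM-CSF a wide range of myeloid progenitors. CSF1R, which serves macrophages, and FLT3, which marks early multipotent progenitors, are receptor tyrosine kinases of the same family as KIT.

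Promoter sequence is shown for Epor and Il6ra, receptor genes that rose in HE2, and for Csf2rb2, the neighbour of Csf2rb; these windows lie wholly upstream of the transcripts annotated in the count tables. Each is the 250 bases before the RefSeq transcription start in build GRCm38.p6, written 5' to 3' on the strand of the gene. Capitals mark matches on either strand to 4 short motifs. The GATA motif was searched as AGATAA, as TGATAA, as AGATAG and as TGATAG. The PU.1 motif was searched as GAGGAAG and as GAGGAAC, the RUNX motif as TGTGGT and the C/EBP motif as TTGCNNAA. No 2 matches of different motifs overlapped in the windows shown. The windows are Epor at chr9:21963577-21963826, minus strand, Il6ra at chr3:89913197-89913446, minus strand and Csf2rb2 at chr15:78305722-78305971, minus strand.
Epor: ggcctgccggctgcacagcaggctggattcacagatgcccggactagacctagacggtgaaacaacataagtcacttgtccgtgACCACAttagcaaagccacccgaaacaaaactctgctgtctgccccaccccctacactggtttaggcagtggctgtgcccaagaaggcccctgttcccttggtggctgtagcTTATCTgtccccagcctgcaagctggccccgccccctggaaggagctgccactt
Il6ra: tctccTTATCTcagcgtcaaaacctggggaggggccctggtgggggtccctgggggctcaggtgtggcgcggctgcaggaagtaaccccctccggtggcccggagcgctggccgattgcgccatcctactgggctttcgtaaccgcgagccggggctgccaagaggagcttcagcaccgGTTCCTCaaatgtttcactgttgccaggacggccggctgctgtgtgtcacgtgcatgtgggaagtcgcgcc
Csf2rb2: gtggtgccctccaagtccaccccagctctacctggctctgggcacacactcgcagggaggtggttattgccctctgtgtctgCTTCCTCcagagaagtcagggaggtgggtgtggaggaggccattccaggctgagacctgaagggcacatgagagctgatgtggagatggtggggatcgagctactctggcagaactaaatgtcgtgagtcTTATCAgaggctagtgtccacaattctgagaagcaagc
The Epor window held a GATA match 54 to 49 bases and a RUNX match 166 to 161 bases before the start. The Il6ra window held a GATA match 245 to 240 bases and a PU.1 match 71 to 65 bases before it, and Csf2rb2 held a GATA match at 38 to 33 and a PU.1 match at 168 to 162. RefSeq gave windows for 7 of the 9 genes, not for Csf1r and Csf2rb. Among the others, Csf3r held a PU.1 match, Csf2ra a pair of overlapping PU.1 matches, Il3ra a GATA and a C/EBP match, Il7r a C/EBP match and Flt3 none of the 4. Over 32851 windows of the same length, 26.5% held the GATA motif, 14.3% PU.1, 14.0% RUNX and 9.56% C/EBP.

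Depth ran from 24920434 to 58782055 counts per library, and 3 counts in a library, taken as the floor of detection, corresponded to 0.0532 to 0.126 CPM (the reads of a gene as a share of its library). CPM here are scaled by trimmed mean of M values (TMM) factors, and ± gives the SD over 2 libraries. The summed level of 6 ES markers was 2562 to 2625 CPM in ES and 9.82 to 12.5 CPM in HP, that of 7 endothelial markers was 2168 to 3673 CPM in HE1, overlapping 1376 to 2333 CPM in HE2, and that of 8 progenitor markers was 1509 to 1833 CPM in HP, overlapping 1250 to 1814 CPM in HE2. The progenitor markers, which include the sort antigen genes Kit and Itga2b, summed to 274 to 463 CPM in HE1. The 2 HE1 libraries were the least alike (r = 0.967 across genes, against 0.994 in ES), with 46.3 and 93.5 CPM of the ES markers. Klf4 made up 39.8 and 26.8 CPM of these sums, and other ES markers differed by more, with Pou5f1 at 2.82 and 26.3 CPM and Nanog at 0.715 and 11.6 CPM. Itga2b, which encodes CD41, stood at 177 ± 71.0 CPM (n = 2) in the CD41- HE1 gate and 487 ± 25.3 CPM (n = 2) in HE2, against 41.2 ± 9.58 CPM (n = 2) in HB. Tek, which encodes TIE2, was at 61.5 and 64.2 CPM in the TIE2- HP gate, near its 57.2 and 60.8 CPM in HB, and at 564 and 294 CPM in HE1, so transcripts of both sort markers were found in gates negative for the protein. Kdr, which encodes FLK1, was at 957 and 1284 CPM in HB and 2.43 and 2.70 CPM in ES. Libraries are labelled as replicates without a statement of separate cultures, so p-values below measure the spread between these libraries.

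Between HE1 and HE2, 4 of the 9 receptor genes came on: Epor, Csf2rb, Csf3r and Il6ra. Taking a mean of at least 9 CPM as on, 2 of the 9 genes were on in ES (Csf2ra and Il3ra) and 2 in HB (Epor and Il3ra). HE1 had 1 (Il3ra), HE2 had 5 (Epor, Csf2rb, Csf3r, Il3ra and Il6ra), and HP had 6, Csf2ra in addition to the 5 of HE2. The share of all 22596 tested genes at that level was 46.3% for ES, 45.3% for each of HB, HE1 and HE2, and 45.2% for HP. In HE1 the count rested on the level chosen: at 5 CPM it was 4, because Epor, Csf2ra and Csf2rb lay between both levels, and without HE1 replicate 2 it was 2. Csf2ra lay close to 9 CPM in HB and HE2 as well. In the deposited matrix of stage means it stood at 9.03 in HB and 9.09 in HE2, which made 3 genes on in HB and 6 in HE2, and without HB replicate 2 it was also on in HB. Il6ra reached 9 CPM in only one HE2 library, so with that level required of both libraries 4 genes were on in HE2.

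**Figure D1:**
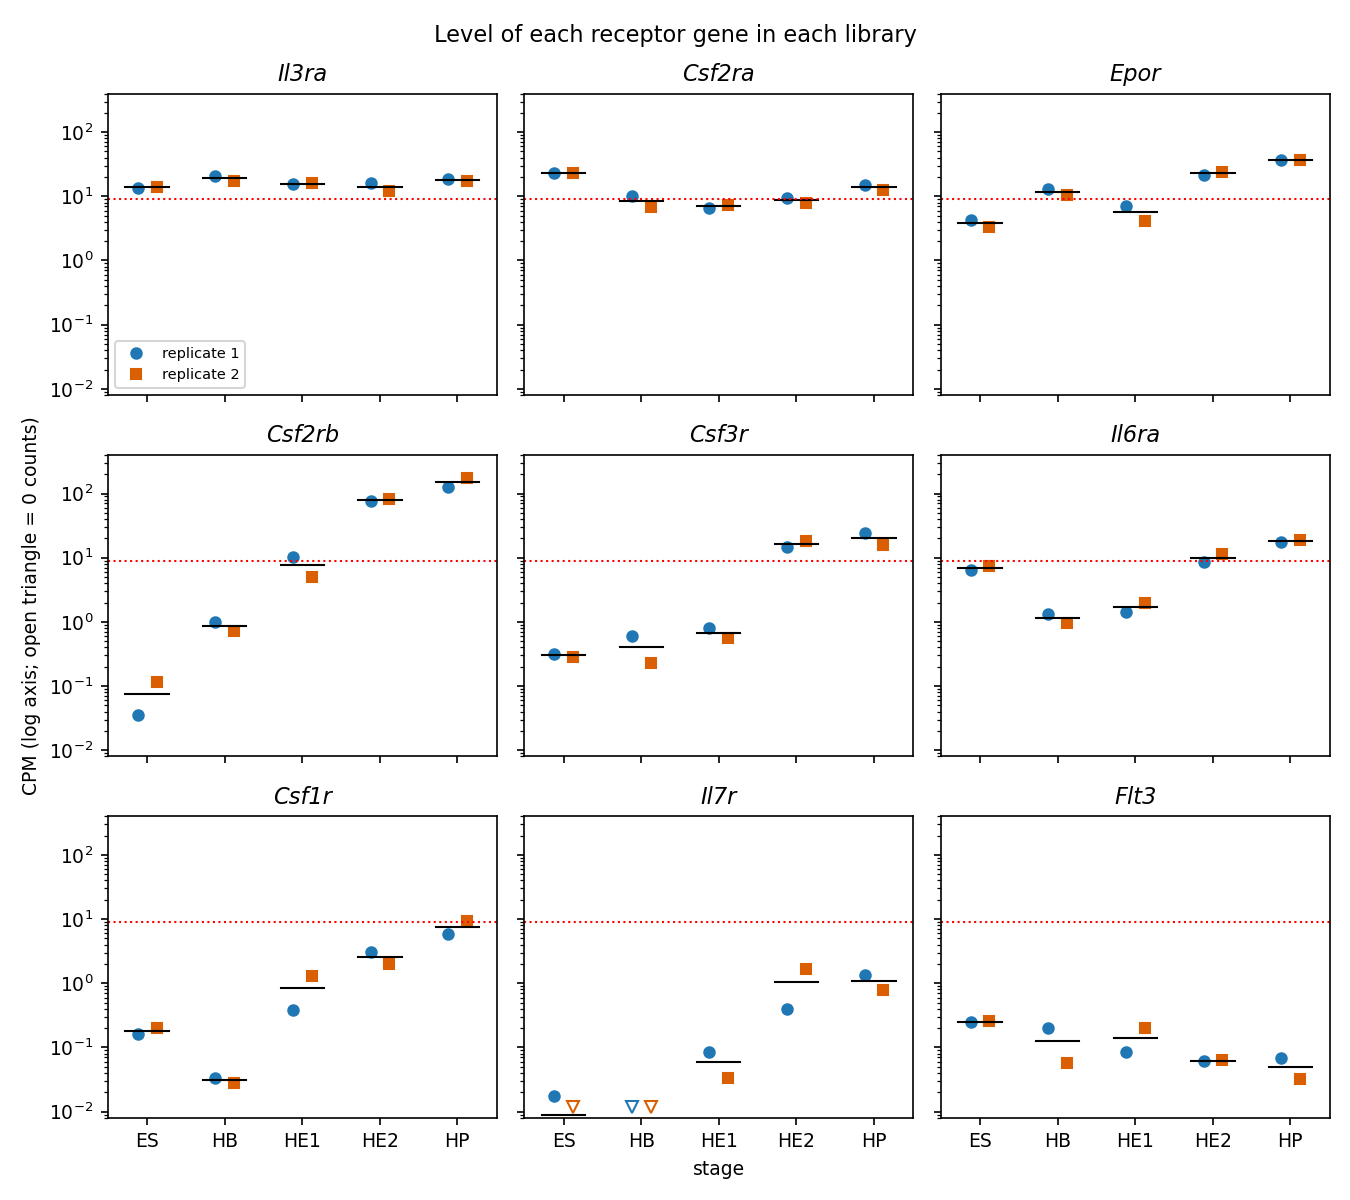
CPM of each receptor gene in each library (log axis), with 2 libraries per stage as points, the stage mean as a black bar and 0 counts as open triangles. The dotted line is 9 CPM. Il3ra lies above it at every stage, the stage means of Csf2rb, Csf3r and Il6ra cross it in HE2, and Flt3 stays below it throughout. Single libraries depart from this for Csf2rb (10.3 CPM in HE1 replicate 1) and Il6ra (8.50 CPM in HE2 replicate 1).

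Il3ra, the ligand-binding chain for IL-3, was present from the start and varied least. Its levels were 13.6 and 14.1 CPM in ES and 20.8 and 17.5 in HB. HE1 gave 15.4 and 15.9, HE2 16.0 and 12.0, and HP 18.5 and 17.2. All 10 libraries lay above 9 CPM, and HE2 overlapped HE1. No step was called: the log2 fold change was 0.46 from ES to HB (SE 0.19, edgeR adjusted p = 0.0795) and -0.16 from HE1 to HE2 (95% interval -0.59 to 0.27, adjusted p = 0.569).

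Csf2ra, the ligand-binding chain for GM-CSF, was highest before differentiation. It stood at 22.9 and 23.1 CPM in ES and 9.95 and 6.82 in HB. HE1 gave 6.69 and 7.40, HE2 9.45 and 7.78, and HP 14.9 and 12.7. Both ES libraries were above all 8 others, and HB and HE1 overlapped. It fell by 1.45 on the log2 scale from ES to HB (SE 0.23, adjusted p = 6.64e-04). From HE1 to HP it differed by 0.97 (SE 0.23, adjusted p = 0.0134), just under the 2-fold change asked of a call, and it passed 2-fold in 6 of the alternatives that leave out a library.

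Epor, the erythropoietin receptor, was already on in HB. Its libraries held 4.22 and 3.36 CPM in ES and 12.9 and 10.5 in HB. HE1 gave 7.15 and 4.13, HE2 21.7 and 23.7, and HP 37.2 and 37.3. HB, HE2 and HP each lay apart from the stage before, and HE1 lay below HB while one HE1 library fell within the ES range. It rose from ES to HB by 1.62 (SE 0.26, adjusted p = 7.07e-04), fell by 1.06 from HB to HE1 (SE 0.26, adjusted p = 0.0115) and rose by 2.02 from HE1 to HE2 (SE 0.26, adjusted p = 0.00205). The fall in HE1 was no longer called without HB replicate 1 (adjusted p = 0.0586) or HE1 replicate 2 (adjusted p = 0.0573). Of 8 erythroid markers, 7 were called higher from HB to HE1, 7 from HE1 to HE2 and none from HE2 to HP, where edgeR called no gene. Among all tested genes 12.7% were called higher from HB to HE1 and 3.26% from HE1 to HE2. The summed level of these markers was 10.7 to 11.9 CPM in HB and 279 to 566 CPM in HE1, then 1717 to 2279 CPM for HE2 and 2480 to 4893 CPM for HP, and its part in the Epor level was not tested. Within a stage the relation varied: the library with the higher erythroid sum held more Epor in HE1 and less in HE2, and in HP Epor was 37.2 and 37.3 CPM beside sums of 4893 and 2480 CPM. In pools of sorted cells such as these, more cells with a transcript and more transcript per cell cannot be told apart.

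Csf2rb, the beta chain that the IL-3, IL-5 and GM-CSF receptors share for signalling, rose at every step up to HE2. Only 2 and 4 counts were found in the ES libraries (0.0355 and 0.115 CPM), then 0.992 and 0.732 CPM in HB. HE1 gave 10.3 and 4.92, HE2 77.4 and 81.3, and HP 124 and 176. No library overlapped with any of another stage. The log2 rise was 3.62 from ES to HB (SE 0.67, adjusted p = 0.00160), 3.13 from HB to HE1 (SE 0.38, adjusted p = 2.46e-04) and 3.39 from HE1 to HE2 (SE 0.33, adjusted p = 5.98e-04). From HE2 to HP it was 0.92 (SE 0.29, adjusted p = 0.327), which was not called. Over the 17 alternatives this change ran from 0.65 to 1.15 and was called in none. The smallest adjusted p among them was under 0.05 and went with a change under 2-fold. With ES replicate 1 left out the first step was 2.87, with ES replicate 2 left out it was 4.47, and the next steps were 2.47 and 4.04 without HE1 replicate 1, all of them still called. HE1, with one library above 9 CPM and one below, is the stage at which the call of on or off for Csf2rb depends on the library.

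Csf2rb lies at chr15:78325752-78353847 on the plus strand beside Csf2rb2 at chr15:78282507-78305721 on the minus strand (GRCm38, as annotated in the count tables). Csf2rb2 encodes a near-identical beta chain specific to IL-3 in mice. Reads that matched both genes equally were not counted, so both levels are uncertain. Csf2rb2 held 1 and 1 counts in ES, 0.463 and 0.394 CPM in HB; HE1 gave 5.76 and 2.77, HE2 20.4 and 20.7, and HP 32.5 and 40.1. It too rose from HE1 to HE2, by 2.28 on the log2 scale (SE 0.31, adjusted p = 0.00254). Per length of exon, Csf2rb over Csf2rb2 was 1.40 and 1.21 in the HB libraries, 1.16 and 1.16 in the HE1 libraries, 2.46 and 2.56 in HE2, and 2.49 and 2.87 in HP as counted.

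The chains of one receptor therefore reached their levels at different stages. Per length of exon (RPKM, the CPM divided by kilobases of exon), Csf2rb over Csf2ra was 0.0393 and 0.0424 in the HB libraries and 0.605 and 0.262 in those of HE1. It was 3.23 and 4.12 for HE2 and 3.29 and 5.50 for HP. Csf2rb over Il3ra went the same way, from 0.0194 and 0.0171 in HB to 0.273 and 0.126 in HE1 and 1.97 and 2.76 in HE2. As counted, the ligand-binding chains exceeded the shared chain in every library up to HE1, and from HE2 on the shared chain exceeded both. Reads shared with Csf2rb2 are missing from the Csf2rb level in an amount that was not measured, so the order of Csf2rb and Csf2ra in HE1 is uncertain.

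**Figure D2:**
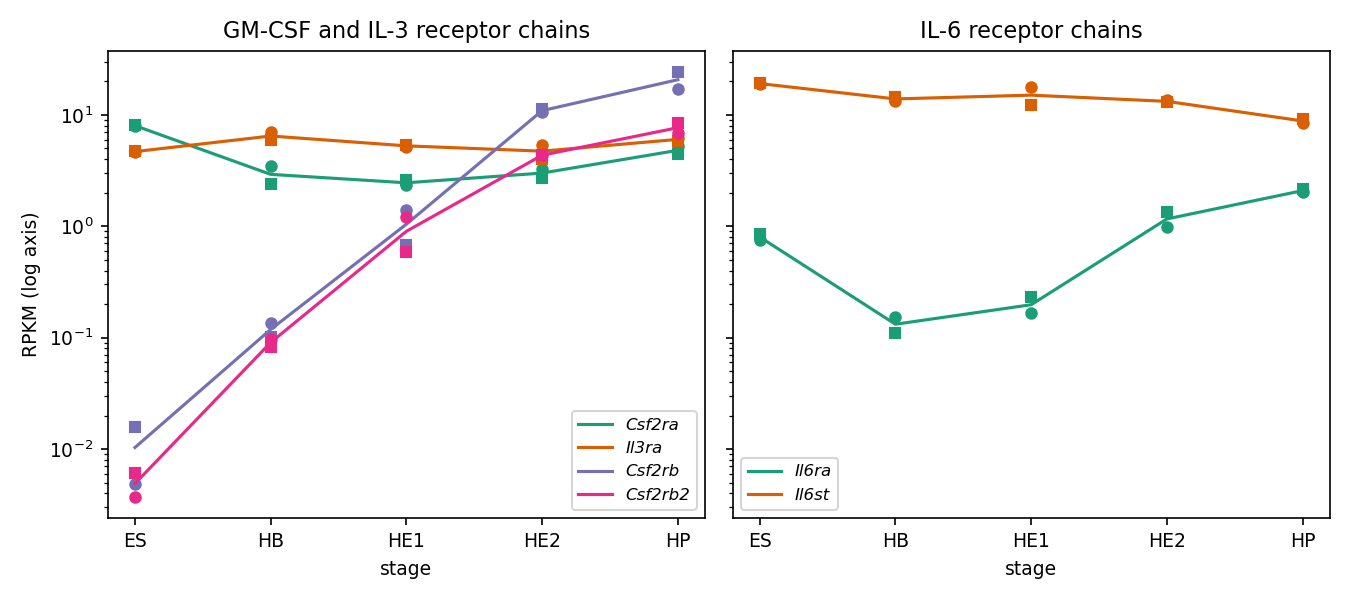
RPKM (log axis) of the IL-3 and GM-CSF receptor chains (left) and the IL-6 receptor chains (right) at each stage; lines join stage means, circles are replicate 1 and squares replicate 2. Csf2rb rises past Csf2ra and Il3ra between HE1 and HE2, while Il6st stays above Il6ra at every stage.

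Il6ra, the IL-6-binding chain, fell from ES to HB and rose again in HE2. Its levels were 6.44 and 7.40 CPM in ES and 1.32 and 0.958 in HB. HE1 gave 1.43 and 1.98, HE2 8.50 and 11.6, and HP 17.4 and 18.7. Every HB and HE1 library lay below every library of the other 3 stages. It fell by 2.60 on the log2 scale from ES to HB (SE 0.30, adjusted p = 8.27e-05) and rose by 2.55 from HE1 to HE2 (SE 0.30, adjusted p = 0.00111). Its signalling partner Il6st (gp130) was abundant throughout, at 212 ± 2.78 CPM in ES and 97.8 ± 7.06 CPM in HP (n = 2 each), and no successive step of Il6st was called. Per length, Il6st over Il6ra was 107 and 53.9 for HE1, 13.7 and 9.63 for HE2, and 4.15 and 4.28 for HP, in a blast medium that held IL-6 at all 3 of these stages.

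Csf3r, the G-CSF receptor, had the largest fitted rise of the 8 tested receptor genes from HE1 to HE2. It stood at 0.319 and 0.287 CPM in ES and 0.595 and 0.225 in HB. HE1 gave 0.799 and 0.561, HE2 14.8 and 18.1, and HP 24.3 and 15.7. The 4 libraries of HE2 and HP all lay above 9 CPM and the other 6 all below 1 CPM. The log2 rise from HE1 to HE2 was 4.60 (SE 0.42, adjusted p = 4.98e-04), and the difference between HE2 and HP was 0.28 (SE 0.34, adjusted p = 1). Of 8 granulocyte markers 3 were tested, and Mpo and Ltf were called higher from HE1 to HE2, as were 3.26% of all tested genes. The sum over the 8 was 3.04 to 7.19 CPM in HE1, 63.1 to 151 CPM in HE2 and 113 to 252 CPM in HP. Mpo, an enzyme of early granules, made up most of this, while Ctsg, S100a8, S100a9 and Ly6g stayed at or under 3 counts in every HE2 and HP library. Within HE2 and within HP the library with more Mpo (148 against 61.5 CPM, and 247 against 111 CPM) also held more Csf3r. Prtn3, the other tested marker beside Ltf, went with Mpo at both stages. Ltf went the other way in HE2 (0.857 against 1.22 CPM) and with Mpo in HP (2.37 against 0.763 CPM). The part of granulocyte-lineage cells in the Csf3r level was not tested.

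Csf1r, the macrophage colony-stimulating factor receptor, rose from HB on and stayed below a mean of 9 CPM. HB to HE1 was the only successive step called. It gave 1 count in each HB library, against 9 and 7 in ES. The HE1 libraries gave 9 and 39, HE2 102 and 64, and HP 260 and 295. In CPM, HE1 held 0.379 and 1.29, HE2 3.11 and 2.03, and HP 5.93 and 9.38, with no overlap between these stages. The fall from ES to HB was 2.41 on the log2 scale (SE 0.98, edgeR adjusted p = 0.0733) and not called. It was called without the filter on low counts (adjusted p = 0.0340) and with either HE1 library left out. With 1 count in each HB library, its size is uncertain. HE1 over HB was a ratio of 29.2 in pooled CPM (95% counting interval 7.65 to 248), and the step was called (adjusted p = 0.00259). The step to HE2 was 1.59 on the log2 scale (SE 0.53, adjusted p = 0.0689) and not called, though it was called with DESeq2 (adjusted p = 0.0471), without the filter on low counts (adjusted p = 0.0101) and without HE1 replicate 2 (adjusted p = 0.0391). From HE1 to HP the rise was 3.17 (SE 0.55, adjusted p = 0.00268). The size of both called steps rested on HE1 replicate 2: without it the log2 change of Csf1r was 3.50 in place of 4.65 from HB to HE1 and 4.32 from HE1 to HP, each still called. Of 9 macrophage markers, Adgre1 was at 0.221 ± 0.0148 CPM in HE1, 0.601 ± 0.400 in HE2 and 1.69 ± 0.806 in HP (n = 2 each), the summed level was 27.2 to 51.5 CPM in HE1 and 37.3 to 41.0 CPM in HP, and C1qa, C1qb and C1qc were at or under 3 counts in both HP libraries. Mpeg1, Lyz2, Fcgr1 and Adgre1 were called higher in HP than in HE1, while Mrc1 fell by 2.62 on the log2 scale (SE 0.76, adjusted p = 0.0303). Between these stages 5.35% of all tested genes were called higher and 11.2% lower. Within stages the markers did not go one way: the library with more Csf1r held more Adgre1 at HE1, HE2 and HP, but in HE1 it held less Mrc1 (10.6 against 42.3 CPM), in HE2 less Mpeg1 (1.46 against 2.13 CPM) and in HP less Lyz2 (12.3 against 21.1 CPM). The part of macrophage-lineage cells in the Csf1r level was not tested.

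Il7r, the ligand-binding chain for IL-7, was at the floor before HE2. Counts were 1 and 0 in ES and 0 and 0 in HB. HE1 gave 2 and 1, HE2 13 and 53, and HP 60 and 25, which in CPM was 0.396 and 1.68 in HE2 and 1.37 and 0.795 in HP. The HE2 libraries differed from each other by more than HE2 differed from HP. HE2 over HE1 was a ratio of 18.5 (95% counting interval 6.06 to 91.9) and HP over HE1 was 20.3 (6.73 to 101). The fitted log2 rise to HE2 was 4.12, and ran from 2.76 (without HE2 replicate 2) to 4.86 (without HE1 replicate 1) with a library left out. The edgeR adjusted p was 0.0336 for HE2 and 0.0160 for HP; the HE2 call was lost without HE2 replicate 2 (adjusted p = 0.281), without HE1 replicate 2 (0.176), with only the 4 libraries compared (0.0678) and with the replicate number as a block (0.0585), and the HP call without HE1 replicate 2 (0.109) or HP replicate 1 (0.0903). Il2rg, the common gamma chain with which IL7R pairs, was at 17.3 and 4.92 CPM in HE1 and 29.8 and 28.3 in HE2. Beside it, 8 lymphoid markers summed to 13.4 to 15.9 CPM in HE1 and 2.17 to 4.48 CPM in HP. Ebf1, a B-lineage factor, made up most of the HE1 sum (14.1 and 8.85 CPM) and was the 1 of 5 tested markers called lower from HE1 to HP, by 2.62 on the log2 scale (SE 0.33, adjusted p = 5.94e-04). At that step 11.2% of all tested genes were called lower. Cd3e, Rag2, Pax5 and Dntt were at or under 3 counts in both HP libraries.

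Flt3 was below 9 CPM at every stage. It gave 14 and 9 counts in ES and 6 and 2 in HB. HE1 gave 2 and 6, HE2 2 and 2, and HP 3 and 1. The HE2 and HP libraries were all at or under 3 counts, where 3 counts are at most 0.0954 CPM. Flt3 did not pass the filter on low counts and was not tested. Its ligand gene Flt3l was at 1.24 ± 0.0839 CPM in ES, 15.3 ± 6.04 CPM in HE2 and 18.4 ± 0.947 CPM in HP (n = 2 each), and was called higher from ES to HB and from HE1 to HP.

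Calls among the receptors were set against the share called among all genes. From ES to HB 4 of the 8 tested receptor genes were called, 2 higher (Epor and Csf2rb) and 2 lower (Csf2ra and Il6ra), where 28.8% of all tested genes were called, 11.5% higher and 17.3% lower. From HB to HE1 it was 3, with Csf1r and Csf2rb higher and Epor lower, against 20.9% (12.7% higher and 8.19% lower). From HE1 to HE2 it was 5, all higher (Epor, Csf2rb, Csf3r, Il6ra and Il7r), against 8.65% of all genes called, 3.26% higher and 5.39% lower. That balance depended on the fit: with only the 4 libraries compared, 364 of all genes were called higher and 171 lower. The median log2 fold change from HE1 to HE2 was 2.28 over the 8 receptor genes and -0.08 over all tested genes. It was 3.22 over the 8 progenitor markers, all 8 of them called higher at this step. From HE2 to HP no receptor gene was called and neither was any of the 22596 genes (0.0%) by edgeR, although 5 receptor genes had an unadjusted p under 0.05, against 7.89% of all genes, and 6 lay higher in both HP libraries than in both HE2 libraries, as 15.8% of all genes did. limma-voom and DESeq2 also called none of the receptors there, with 5 at an unadjusted p under 0.05 by each (8.07% of all genes by limma-voom and 7.57% by DESeq2). Csf1r was called when low counts were not filtered (adjusted p = 0.0318). From HE1 to HP it was 6, all higher (Csf1r in addition), against 16.5% called, 5.35% higher and 11.2% lower, and from ES to HE1 it was 4, with Csf1r and Csf2rb higher and Csf2ra and Il6ra lower, against 40.7% (20.3% higher and 20.4% lower). Csf3r was not called from ES to HE1 (log2 change 1.13, edgeR adjusted p = 0.0648). It was called by DESeq2 (adjusted p = 0.0483), and by edgeR with total counts in place of TMM (0.0430) or without the filter (0.0339). Leaving out either HB library also gave a call. Csf1r was no longer called between ES and HE1 by limma-voom (adjusted p = 0.0517), with only the 4 libraries compared (0.0524), or without ES replicate 1 (0.0816) or HE1 replicate 2 (0.192).

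**Figure D3:**
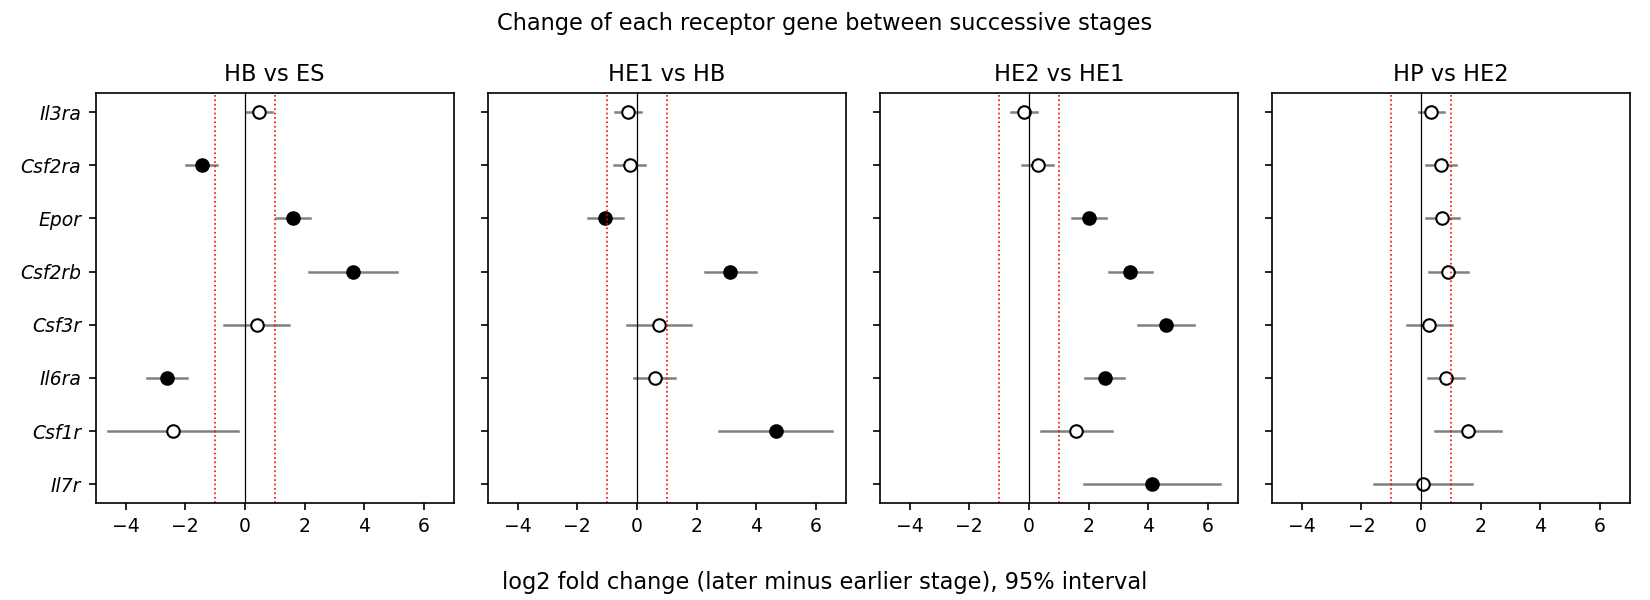
log2 fold change of 8 receptor genes between successive stages with 95% intervals; filled points were called at an adjusted p under 0.05 and 2-fold (dotted lines). 5 genes are called between HE1 and HE2 and none between HE2 and HP; Il7r is left out where both stages are at the floor.

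Compared per length, the order of the receptors changed along the series. In HB, Il3ra (6.45 ± 0.787 RPKM) and Epor (5.87 ± 0.868) led and overlapped, with Csf2ra next at 2.92 ± 0.772. In HE1, Il3ra led at 5.26 ± 0.127, and Epor (2.84 ± 1.07) and Csf2ra (2.45 ± 0.175) overlapped. In HE2, Epor (11.4 ± 0.729) and Csf2rb (10.9 ± 0.380) overlapped at the top, followed by Il3ra and Csf3r, which also overlapped. In HP, Csf2rb (20.7 ± 5.05) and Epor (18.7 ± 0.00950) again overlapped, then Il3ra (6.02 ± 0.329), Csf3r (5.54 ± 1.70) and Csf2ra (4.80 ± 0.558), each overlapping the next. Il6ra (2.09 ± 0.107), Csf1r (1.33 ± 0.422), Il7r (0.232 ± 0.0871) and Flt3 (0.00811 ± 0.00420) followed in HP without overlap (n = 2 throughout).

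The related receptors did not move as a block. Of 27 other receptor chains 24 were tested, and from HE1 to HE2 6 rose, among them Il21r, Il12rb2, Il9r, Csf2rb2 and Kit, and 4 fell (Cntfr, Pdgfra, Lifr and Ghr), with a median log2 change of -0.08. Among all tested genes 3.26% were called higher and 5.39% lower at this step. Kit, the stem cell factor receptor used to sort all 3 populations, rose by 1.55 (SE 0.34, adjusted p = 0.0207), from 146 and 73.0 to 230 and 410 CPM. Il21r had 0 counts in both HE1 libraries and 49 and 116 in HE2, and Il12rb2 had 4 and 1 counts against 64 and 172. From ES to HB, 5 of the 24 rose, with the mesoderm receptor Pdgfra from 2.13 ± 0.00399 to 194 ± 1.97 CPM (n = 2 each), and 5 fell, with the prolactin receptor Prlr from 7.48 ± 0.776 to 0.561 ± 0.515 CPM (n = 2 each) and Il2rg by 2.83 on the log2 scale (SE 0.58, adjusted p = 0.00305). Beside these counts, 11.5% of all tested genes were called higher and 17.3% lower from ES to HB.

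The genes for the ligands differed widely in level. Of 10, 7 were tested and none was called from HE1 to HE2, where 8.65% of all tested genes were called. Csf2 and Il3, which encode GM-CSF and IL-3, gave 0 counts in all 10 libraries, which allows up to 0.0532 to 0.126 CPM for counting error only. Csf1 was the highest of the 10 in HE1: it stood at 5.46 and 5.86 CPM in HB and 99.6 and 111 in HE1, a rise of 4.22 (SE 0.22, adjusted p = 3.88e-06), and at 70.2 and 45.4 in HE2. The CSF1 ligand gene was thus at its highest in HE1, where its receptor Csf1r was at 0.833 ± 0.643 CPM (n = 2). Epo was at 9.72 and 7.60 CPM in HE1 and 10.5 and 12.3 in HE2, Il6 at 20 and 12 counts in HE2 against 3 and 0 in HE1, Csf3 at 6 and 33 counts in HE1, and Il7 at 17 and 27 counts in HE1, none of them called between HE1 and HE2.

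Downstream of the receptors, the kinases were already present before most of the receptors. Jak2, which serves EPOR and the beta chain, rose from ES to HB by 1.96 (SE 0.20, adjusted p = 3.39e-05), from 13.6 ± 0.177 to 52.7 ± 3.32 CPM (n = 2 each), and was at 90.5 ± 28.2 in HE1 and 93.0 ± 1.99 in HE2. Jak1 was at 194 ± 67.1 CPM, Jak3 at 152 ± 48.9 and Tyk2 at 49.9 ± 9.71 in HE1 (n = 2 each), and none of the 4 was called from HE1 to HE2. Of the 11 JAK and STAT genes 3 rose between those stages, among them Stat4 by 1.99 (SE 0.31) and Stat5a by 1.26 (SE 0.25), at adjusted p of 0.00542 and 0.0160. The share of all tested genes called higher there was 3.26%. Stat5a and Stat5b, the main effectors of EPOR and the beta chain, had risen from ES to HB by 3.16 (SE 0.28) and 2.75 (SE 0.23), at adjusted p of 1.64e-05 and 1.18e-05, and Stat4 fell by 1.59 (SE 0.32, adjusted p = 0.00251) at that step.

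Adaptors rose in greater number at HE2: 5 of 12 rose, among them Btk, Vav1, Syk and Pik3cd, and none fell. From HE1 to HE2, 3.26% of all tested genes were called higher and 5.39% lower. Btk, a kinase of B and myeloid cells, went from 6 and 6 counts in HE1 to 228 and 295 in HE2, a log2 rise of 5.17 (SE 0.50, adjusted p = 5.98e-04). Vav1, a haematopoietic exchange factor, rose by 2.78 (SE 0.32, adjusted p = 0.00111). Gab2, a docking protein of the beta chain, rose by 3.17 from ES to HB (SE 0.18, adjusted p = 1.06e-06), and Pik3cd fell by 2.00 (SE 0.30, adjusted p = 4.68e-04). Of 15 inhibitors, the phosphatase genes Ptpn6 (2.60, SE 0.27, adjusted p = 6.87e-04) and Inpp5d (2.03, SE 0.16, adjusted p = 2.65e-04) rose from HE1 to HE2, while Cish, a feedback target of STAT5, fell by 1.38 (SE 0.32, adjusted p = 0.0253). From ES to HB Inpp5d fell by 2.06 (SE 0.17), Socs3 fell by 1.20 (SE 0.28) and Sh2b3 rose by 1.46 (SE 0.18), at adjusted p of 9.14e-06, 0.00644 and 1.47e-04. Of 9 target genes of STAT signalling, Pim2 rose by 2.16 (SE 0.38, adjusted p = 0.00939) and Id1 fell by 1.08 (SE 0.20, adjusted p = 0.0124) from HE1 to HE2; from ES to HB, Ccnd2 rose by 3.92 (SE 0.22, adjusted p = 1.14e-06), Bcl6 rose by 2.37 (SE 0.39, adjusted p = 8.05e-04) and Osm went from 71 and 57 counts to 0 and 0.

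**Figure D4:**
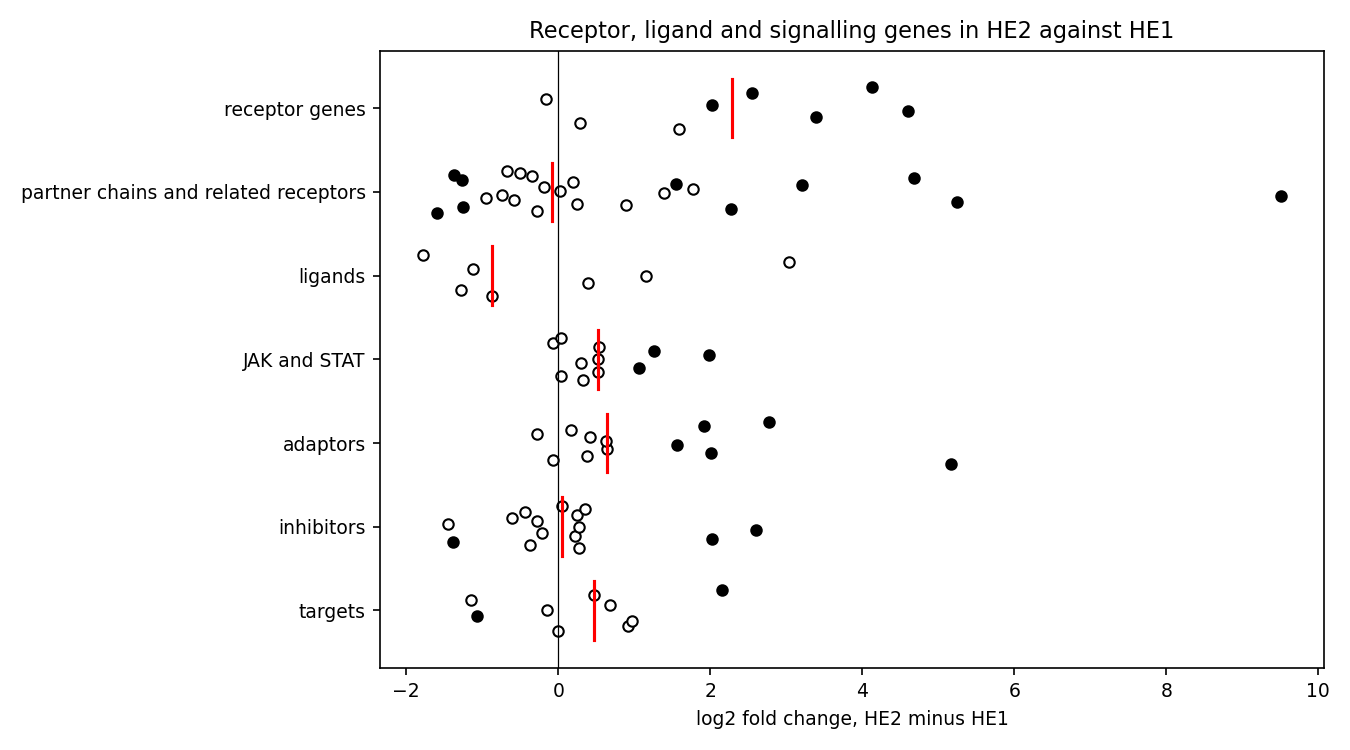
log2 fold change from HE1 to HE2 of the tested receptor genes and of 6 lists of related genes; each point is a gene, filled where called, and the red bar is the list's median. The receptor genes have a median of 2.28 against -0.08 for the other receptor chains; the point at far right is Il21r, which has 0 counts in HE1, so its fitted value is not a measured size.

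The genes whose levels followed a receptor most closely over the 10 libraries were picked among 12235 genes by Pearson's r of log2 CPM; the points share 5 stages, so the values describe shared stage patterns only. For Csf2rb they were Csf2rb2 (r = 0.996), the platelet and leukocyte protein gene Plek (0.994) and the integrin gene Itga4 (0.993). Csf3r was followed by Il18rap (0.995), Ptpn7 (0.992) and Alox5ap (0.991), Il6ra by Rap1gap2 (0.982), Dok2 (0.979) and Pik3cd (0.979), and Epor by Arhgap45 (0.982), Acad9 (0.978) and Pheta2 (0.977). Csf1r went with Alox5 (0.983), Mybpc3 (0.978) and Nmnat3 (0.977), and Il7r with Trim58 (0.986), Was (0.986) and Nrros (0.985). Csf2ra, with its high ES level, was followed by Atg4d (0.979), Slco4c1 (0.971) and Acss1 (0.969). Il3ra had the loosest company, Nadsyn1 (0.921), Abtb1 (0.865) and Btg2 (0.863).

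The study's list of enhancers that were active in haemogenic endothelium before the linked gene was expressed in HP names Csf2rb, Csf3r and Il6ra among the linked genes. Those genes entered the list by their expression in these same libraries, so their low HE1 and high HP levels are part of how it was made.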

How the data were processed

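Nuclear-enriched, rRNA-depleted, stranded RNA was sequenced in 10 libraries (5 stages, 2 each). The authors removed rRNA reads (RiboDetector), trimmed with Trimmomatic, aligned to mm10 with HISAT2 2.2.1 and counted with featureCounts 2.0.1 (reverse-stranded, multi-mapping reads not counted); the deposited values are raw read counts per gene. A deposited matrix of stage means, named CPM by the authors, was read as a score scaled by the authors with edgeR 3.40.2. It lists 15686 genes, 8 of the 9 receptors among them (not Flt3), and only the alternative for genes on used it. Its values are stage means, so it carries no error.

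From the counts, edgeR 4.0.16 (R 4.3.3) gave TMM-scaled CPM. Genes were kept by filterByExpr (22596), and a quasi-likelihood model over all 10 libraries (5 residual degrees of freedom, stage only) tested each pair of stages. A call needs a Benjamini-Hochberg adjusted p under 0.05 over all tested genes and a change of at least 2-fold. The common biological coefficient of variation was 0.226. limma-voom (limma 3.58.1), the authors' kind of test, and DESeq2 1.42.0 were alternatives, with other scalings, no filter, 4 libraries only, a replicate block and each library left out. In a simulated comparison of HE2 with HE1 over 22596 genes, edgeR found 84% of 200 planted changes of log2 size 2 and made 9 false calls. The same changes were planted in HP, and no other difference between stages was simulated. Genes of low mean CPM, Il7r among them, were not used for planting, so the rate does not cover such genes.

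CPM and RPKM levels carry counting error and the spread of 2 libraries; the counting intervals of ratios (95%) cover counting error only. RPKM used exon lengths from the count tables. Promoter windows are RefSeq sequences for GRCm38.p6. Named genes were all 9 receptors, Csf2rb2, Il6st, Il2rg, Kit, the ligands, the 4 JAK genes, in each other list the 3 largest changes among those called in HE2 against HE1 and in HB against ES, and the 3 genes best correlated with each receptor; some genes that the rule takes in are not reported here. Members and lists were chosen with earlier results of these data known.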

Additional observations from a re-analysis of the deposited data

How the results depend on the processing

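Under the 17 alternatives, the calls of Csf2rb, Csf3r, Il6ra and Epor between HE1 and HE2 held in each, as did the calls of Csf2rb at the 2 earlier steps. Of the recomputed log2 fold changes of single receptors, 729 kept direction and side of the threshold, 18 passed it only under the alternative, 12 lost it and 5 changed sign. The sign changed for Csf3r from ES to HB (-0.41 without HB replicate 1, 0.96 without replicate 2), Il3ra from HE1 to HE2 (0.050 without HE2 replicate 2, -0.36 without replicate 1), Csf3r from HE2 to HP (-0.072 without HP replicate 1, 0.57 without replicate 2) and Il7r from HE2 to HP (-0.63 without HE2 replicate 1, 1.45 without HE2 replicate 2 and -0.39 without HP replicate 1), none of them called. With 4-fold in place of 2-fold, 2 receptors in place of 4 were called from ES to HB. Without the filter on low counts 1 in place of 0 was called from HE2 to HP. In HE1, 4 were on at 5 CPM and 1 to 2 with a library left out. Pathway genes called at 4-fold were 20 of 33 from ES to HB, 12 of 23 from HB to HE1 (35 with no minimum fold), 11 of 23 from HE1 to HE2, 15 of 32 from HE1 to HP and 22 of 41 from ES to HE1. From HE1 to HE2 they were 14 with only the 4 libraries compared, and with a library left out 12 (without HE2 replicate 2) to 29. From HE2 to HP they were 3 by DESeq2, 2 without the filter, and 0 to 5 (without HE2 replicate 2) with a library left out. Genes called over the whole table moved as well: from HE1 to HE2 1954, against 3818 without the filter, 535 with 4 libraries, 901 at 4-fold, 2992 with no minimum fold and 422 (without HE2 replicate 2) to 4295 (without HE1 replicate 1) with a library left out; from HE2 to HP 0, against 62 by limma-voom, 301 by DESeq2, 534 without the filter and 0 to 525 (without HE2 replicate 2) with a library left out. The 4722 from HB to HE1 became 2803 without HB replicate 2, 2594 at 4-fold and 7300 with no minimum fold, and the 3735 from HE1 to HP became 1905 without HP replicate 1, 2086 at 4-fold and 5637 with no minimum fold. At 4-fold, the 6507 from ES to HB became 4029 and the 9189 from ES to HE1 became 5765. The cause was not tested.

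Replicate numbers did not pair the libraries: deviations from the stage means correlated between -0.401 and 0.288 for same-numbered libraries. With the replicate number as a block, the call of Il7r from HE1 to HE2 was lost (adjusted p = 0.0585), leaving 4 receptors called there; the counts of receptors called were otherwise as without it (4, 3, 0, 6 and 4 from ES to HB, HB to HE1, HE2 to HP, HE1 to HP and ES to HE1). Depth limits Flt3, Il7r before HE2 and Csf1r in HB, at or near 3 counts, except for Flt3 in ES (14 and 9 counts).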
